A study of Mus musculus with 26 samples.

Results

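The comparison described here is between the aortas of mice given angiotensin II (AngII), a peptide that constricts arteries and raises blood pressure, and the aortas of sham mice, all with intact Sphk1. The libraries were chosen by tissue, genotype and treatment as labelled: 8 of the 26 in the series, 4 labelled hypertensive and 4 labelled normotensive. All 8 mice were of genotype C57BL6J Sphk1 flox/flox and lacked Cre, so the loxP-flanked Sphk1 alleles were not recombined, and they are called wild type (WT). The AngII mice, which were male, received 490 ng/kg/min for 14 days from an osmotic minipump placed under the skin, started at 12 to 14 weeks of age. The control mice are labelled Sham, and the labels do not give the sham procedure or, separately, the sex and age of these mice. Each value is 1 library of polyadenylated RNA from whole aorta, and the protocol counts 4 mice per group. The 5 AngII aortas with a smooth muscle deletion of Sphk1 entered the model only to help estimate the spread between replicates.

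AngII acts through its type 1 receptor, coupled to Gq, on smooth muscle, fibroblasts and endothelium. The receptor raises cell calcium, activates protein kinase C and calcineurin, and drives MAP kinase signalling, and prolonged infusion is known for thickening the aortic wall with matrix and for drawing leukocytes into the adventitia. Arterial tone is set by the balance between constrictor signals and the nitric oxide and cGMP, prostanoid and potassium channel pathways that relax smooth muscle.

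Values are read counts per gene, given as CPM, that is, as a share of the library's counts after TMM scaling, and the 4 values of a group stand in the order of replicates 1 to 4. The libraries held 26178990 to 32251097 counts in genes. A gene is called, and said to have risen or fallen, when its Benjamini-Hochberg adjusted p in edgeR's quasi-likelihood test is below 0.05. Log2 fold changes are AngII over sham, with their standard errors (SE), and n = 4 in each group throughout. The first principal component, with 47.2% of the variance, separated the groups, and the second, with 18.2%, set AngII replicate 4 (score -57.8) against AngII replicate 1 (29.0) and sham replicate 4 (27.7). Leaving out AngII replicates 1 and 4 together left 2017 genes called higher and 1382 called lower.

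Sphk1 (ENSMUSG00000061878), the kinase that makes sphingosine-1-phosphate, was present in all 8 libraries. It stood at 24.2, 22.9, 16.1 and 11.6 CPM in AngII aortas, against 4.31, 5.08, 6.03 and 3.04 CPM in sham aortas. The groups did not overlap, and the log2 fold change was 2.02 ± 0.270 (SE; edgeR adjusted p = 0.000136). Of 13 tested members of a list of sphingosine-1-phosphate genes, 7 rose and 1 fell (median log2 fold change 0.34), where 14.7% of all tested genes rose and 10.8% fell. Besides Sphk1, the lipid's exporter Spns2 rose by 1.34 ± 0.178, the receptor S1pr2 by 0.72 ± 0.118 and the receptor S1pr3 by 1.17 ± 0.257 on the log2 scale. The degrading lyase Sgpl1 also rose, by 0.50 ± 0.125, and so did the lipid phosphatase Plpp1, by 0.68 ± 0.114 (edgeR adjusted p from 0.000101 to 0.00887 for these 5 genes).

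Of 16863 genes tested, 2475 (14.7%) rose and 1826 (10.8%) fell. A fit of the 8 WT libraries alone, without the Sphk1-deleted aortas, called fewer genes, 1784 higher and 1281 lower of 16221 tested. At least 2-fold changes made up 908 (5.38%) of the genes, higher, and 364 (2.16%), lower. In 12.2% of the genes all 4 AngII libraries lay above all 4 sham libraries, and in 11.7% all lay below. With scaling by library size alone the split was 1747 higher and 3729 lower, and the median gene then lay at -0.126 on the log2 scale, against -0.001 with TMM. Matrix genes accounted for 113 increases and 10 decreases among 191 tested, and cell cycle genes for 133 and 3 among 193. Outside these lists, 2229 of 16479 genes rose and 1813 fell. Predicted genes without a name made up 120 of all increases and 276 of all decreases, and are not named. The shares for each gene list below are read against 14.7% higher and 10.8% lower, and against the median of -0.001. The smaller (or equal) of a list's counts often rested on single libraries: of 11 lists with 1 such member, the count moved by over 1.5 times in 10 when a library was left out, and of 22 lists with more, in 12, which are given beside those lists.

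**Figure D1:**
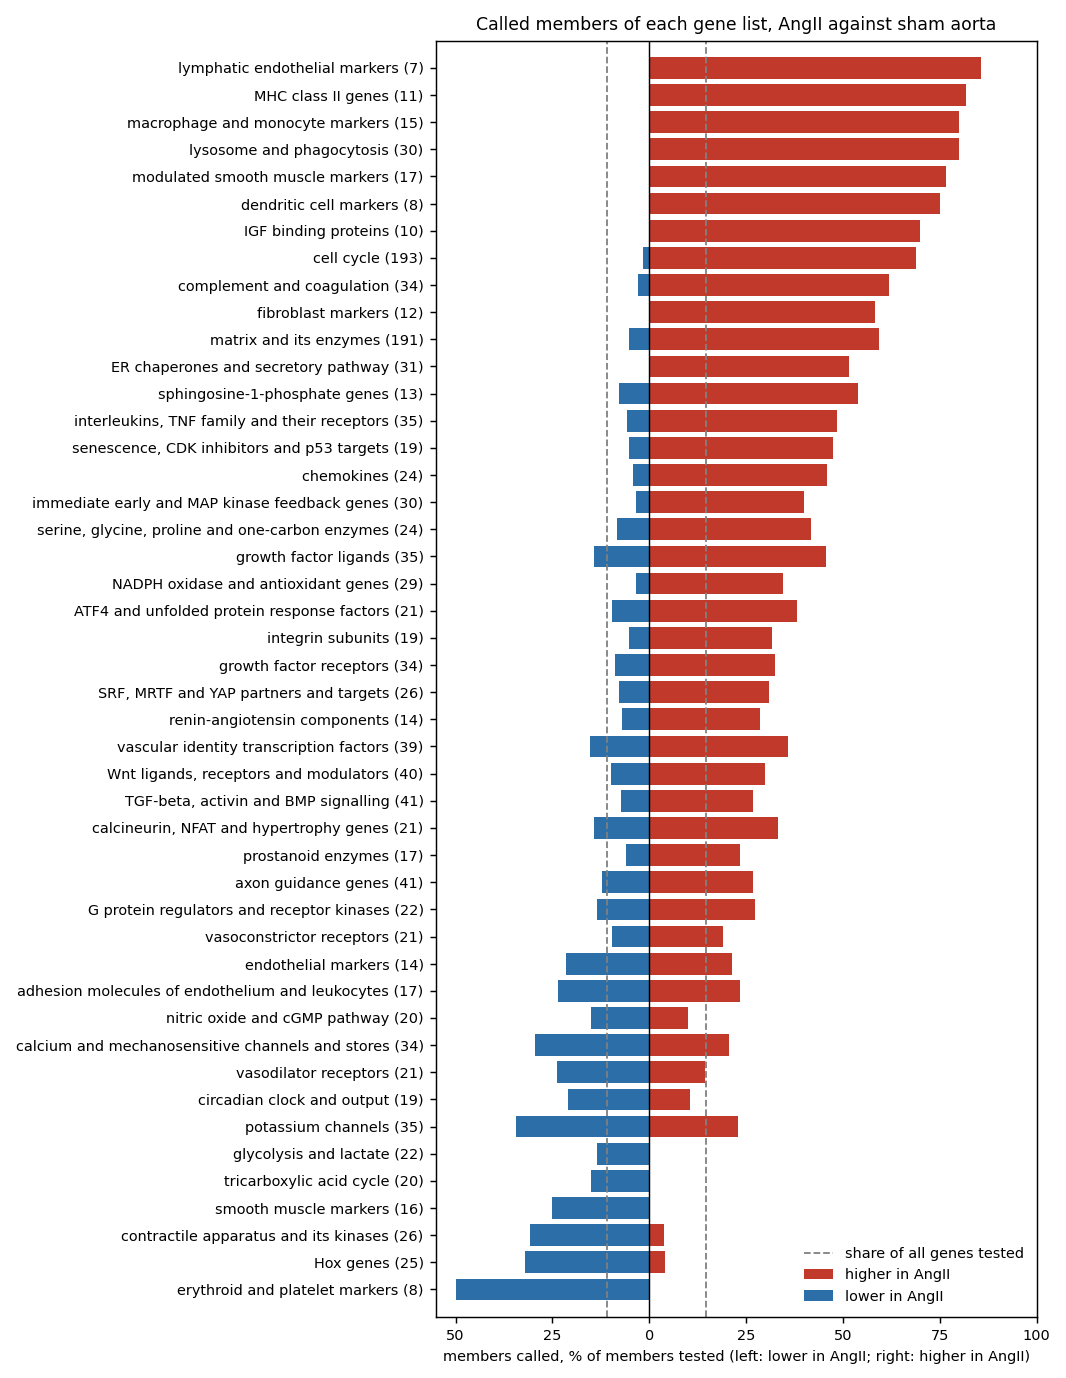
Share of tested members called in each of 46 gene lists, in percent, with the number tested in brackets. Bars to the right count members higher in AngII aortas, bars to the left members lower, and dashed lines mark the shares among all genes, 14.7% and 10.8%. Lymphatic, MHC class II, macrophage, lysosome and modulated smooth muscle lists stand at the top, and erythroid, Hox, contractile and smooth muscle lists at the bottom.

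The defining markers of the labelled tissue were present in every library. The smooth muscle actin gene Acta2 stood at 7939, 11180, 14560 and 15730 CPM in AngII aortas, against 15160, 17510, 15450 and 13350 CPM in sham aortas. Its groups overlapped, and it was not called (log2 fold change -0.32 ± 0.218, SE; edgeR adjusted p = 0.321). The sum over 16 smooth muscle markers was 23550 to 44390 CPM in AngII libraries and 40890 to 50430 CPM in sham libraries. Of the 16, 4 fell and 0 rose (median log2 fold change -0.43). That count was 2 without AngII replicate 1 or 3 and 1 without sham replicate 1 or 3. Lmod1, the smooth muscle leiomodin that nucleates actin filaments, stood at 553, 794, 810.5 and 919 CPM in AngII aortas, against 1206, 1260, 1243 and 1133 CPM in sham aortas. Every AngII library was lower than every sham library in Lmod1, which was called (edgeR adjusted p = 0.00729). Of 17 markers of modulated smooth muscle, the state that has lost contractile features, 13 rose (76.5%) and 0 fell (median log2 fold change 0.98). Their mean log2 CPM was 7.07, 6.81, 6.86 and 6.89 in AngII libraries and 5.43, 5.66, 5.54 and 5.18 in sham libraries. The list shares 6 genes with the matrix list, and its Lgals3, galectin 3, which macrophages also make, stood at 33.3, 49.3, 58.6 and 64.7 CPM in AngII aortas, against 11.9, 18.3, 17.04 and 9.37 CPM in sham aortas. In whole tissue, fewer cells of a type and less RNA per cell cannot be told apart.

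Markers of 4 other cell types held called increases in most members. The macrophage and monocyte list had 12 of 15 members higher and 0 lower, with a summed level of 1028 to 1216 CPM in AngII libraries and 726 to 909.6 CPM in sham libraries. The list of dendritic cell markers had 6 of 8 higher (median log2 fold change 2.61), and its summed level was 24.6 to 41.3 CPM in AngII libraries and 21.1 to 27.7 CPM in sham libraries, so the sums overlapped. For fibroblast markers, 7 of 12 rose, with sums of 3958 to 11350 CPM in AngII libraries and 3677 to 3906 CPM in sham libraries, and 4 rose without AngII replicate 1 or without sham replicate 2. The lymphatic endothelial list had 6 of 7 higher, with sums of 99.7 to 128 CPM in AngII libraries and 56.6 to 92.4 CPM in sham libraries, and 3 rose without AngII replicate 1 or 2 or without sham replicate 1, 2 or 4. The mean log2 CPM of the macrophage list was higher in AngII aortas by 0.72, of the dendritic list by 1.97 and of the fibroblast list by 0.72, and that of the smooth muscle list was lower (-0.34). An exact two-sided permutation test gave p = 0.0286 for each of the first 3 (0.152 adjusted over 16 lists), which is as low as 70 regroupings can go. The same exact test gave p = 0.114 (0.261 adjusted) for smooth muscle. Among AngII libraries, replicate 1 had the highest macrophage, dendritic, fibroblast and lymphatic means and the lowest smooth muscle mean, and replicate 4 the reverse. No member of the B cell, neutrophil and mesothelial lists was called, 4 of 8 erythroid and platelet markers fell, and 3 of 14 endothelial markers rose and 3 fell. The erythroid and platelet count was 2 without sham replicate 3, and 1 endothelial marker fell without AngII replicate 2 or without sham replicate 1, 2 or 3. The part of these shifts in the gene results below was not tested.

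**Figure D2:**
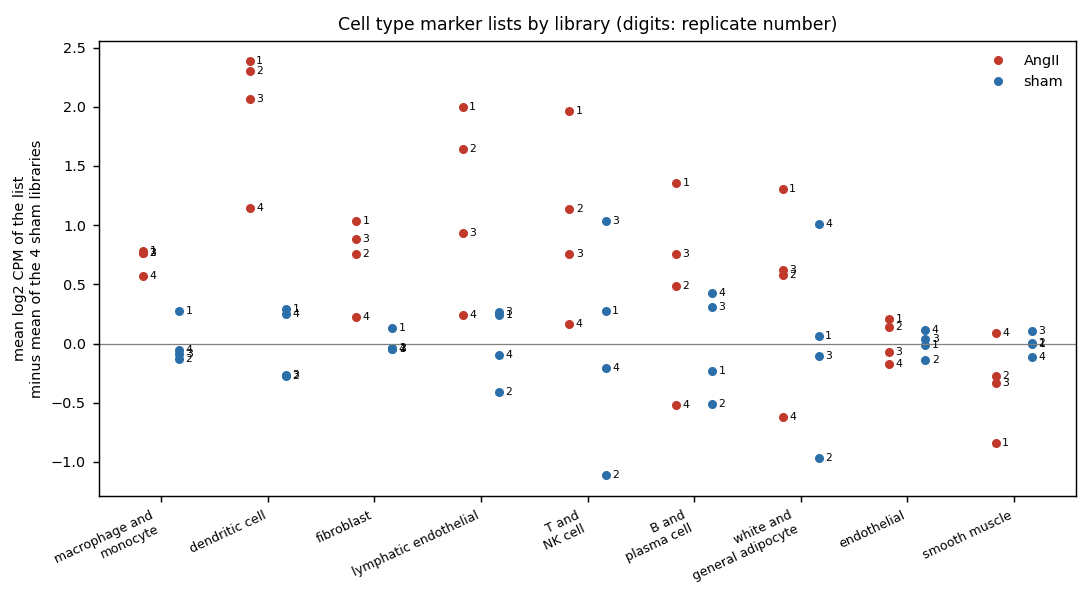
Mean log2 CPM of 9 cell type marker lists in each library, minus the mean of the 4 sham libraries, with AngII libraries on the left of each pair and sham libraries on the right. Digits give replicate numbers. Macrophage, dendritic cell and fibroblast means of all 4 AngII libraries lie above all sham libraries, and AngII replicates 1 and 4 lie at opposite ends of the AngII values in all 9 lists.

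The smallest p of all genes outside matrix and cell cycle belonged to Gpr176 (ENSMUSG00000040133), an orphan receptor known from the circadian clock of the brain. It stood at 10.9, 11.1, 8.57 and 8.48 CPM in AngII aortas, against 0.845, 1.03, 0.830 and 0.643 CPM in sham aortas. AngII aortas were 11.6-fold higher, with a log2 fold change of 3.54 ± 0.194 (SE; edgeR adjusted p = 2.46e-07). The lowest AngII value was far above the highest sham value. Cdkn1a, the cell cycle inhibitor p21, stood at 107, 106, 93.0 and 95.9 CPM in AngII aortas, against 41.9, 43.8, 42.0 and 32.6 CPM in sham aortas. The groups were far apart, with a log2 fold change of 1.32 ± 0.0932 (SE; edgeR adjusted p = 2.08e-06). Rasa4, a calcium-triggered GTPase-activating protein that turns Ras off, stood at 58.2, 70.3, 72.9 and 90.8 CPM in AngII aortas, against 22.5, 19.5, 20.2 and 19.6 CPM in sham aortas. Every AngII library exceeded 2 times every sham library. Ppic, the secretory pathway cyclophilin C, stood at 257, 168, 201 and 139 CPM in AngII aortas, against 49.4, 52.7, 51.3 and 45.4 CPM in sham aortas. Its log2 fold change was 1.94 ± 0.157 (SE; edgeR adjusted p = 4.37e-06).

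Further large increases were those of the synaptotagmin Syt12 (2.44 ± 0.213), the annexin Anxa8 (2.56 ± 0.364), the membrane metalloprotease Adam12 (2.62 ± 0.316) and Arc (2.71 ± 0.442), on the log2 scale with SE. Arc, the neuronal activity-regulated cytoskeletal gene, stood at 44.0, 37.0, 15.6 and 80.2 CPM in AngII aortas, against 7.02, 8.14, 7.58 and 4.29 CPM in sham aortas. Its log2 fold change was 1.95 without AngII replicates 1 and 4. Dram1, an autophagy gene induced by DNA damage, stood at 46.6, 42.1, 45.9 and 47.9 CPM in AngII aortas, against 24.0, 21.5, 21.0 and 20.1 CPM in sham aortas. Srpx2, a secreted sushi-repeat protein, rose by 1.94 ± 0.158. Abundant secreted and endocytic genes were also among those higher. Htra1, a secreted serine protease, stood at 1089, 1153, 1222 and 1218 CPM in AngII aortas, against 569.7, 719, 671 and 496 CPM in sham aortas. Ccdc80, a secreted matrix-associated protein, averaged 991 ± 184 CPM in AngII aortas and 390.2 ± 33.2 CPM in sham aortas. The imprinted noncoding RNA Meg3 averaged 626 ± 177 CPM in AngII aortas and 227 ± 21.3 CPM in sham aortas, the amyloid precursor gene App 1243 ± 75.2 CPM in AngII aortas and 873 ± 53.2 CPM in sham aortas, and the endocytic receptor Lrp1 1646 ± 56.3 CPM in AngII aortas and 1270 ± 80.2 CPM in sham aortas. All of these were called and had no overlap between groups.

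Genes of metabolism and signalling were among the decreases with the smallest p. Suclg2 (ENSMUSG00000061838), a subunit of the GTP-forming succinyl-CoA synthetase of the tricarboxylic acid cycle, stood at 58.1, 58.5, 58.5 and 58.0 CPM in AngII aortas, against 94.0, 90.9, 94.1 and 101 CPM in sham aortas. The 4 AngII libraries agreed within 1 CPM, and the log2 fold change was -0.70 ± 0.0569 (SE; edgeR adjusted p = 3.48e-06). Bche, butyrylcholinesterase, stood at 16.1, 18.01, 20.5 and 19.7 CPM in AngII aortas, against 42.7, 39.4, 43.1 and 46.9 CPM in sham aortas. Crtc3, a coactivator of CREB, stood at 78.6, 92.3, 88.7 and 92.6 CPM in AngII aortas, against 173, 166, 171 and 175 CPM in sham aortas. Neither overlapped between groups, and the log2 fold changes were -1.21 ± 0.0872 for Bche and -0.96 ± 0.0827 for Crtc3 (SE). Phkg1, the muscle catalytic subunit of phosphorylase kinase, stood at 34.2, 38.2, 46.0 and 33.5 CPM in AngII aortas, against 83.0, 84.95, 82.0 and 81.8 CPM in sham aortas. Pdp2, a phosphatase that activates pyruvate dehydrogenase, averaged 19.1 ± 1.67 CPM in AngII aortas and 39.8 ± 3.42 CPM in sham aortas. Parm1 averaged 39.7 ± 0.744 CPM in AngII aortas and 80.0 ± 8.52 CPM in sham aortas and the synaptotagmin Syt15 25.6 ± 1.77 CPM in AngII aortas and 61.1 ± 5.38 CPM in sham aortas. For these 6 genes the AngII mean was between 0.419 times (Syt15) and 0.514 times (Crtc3) the sham mean in the fit.

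Some genes showed larger decreases on the log2 scale. Lepr, the leptin receptor, stood at 4.61, 4.26, 2.35 and 4.33 CPM in AngII aortas, against 16.1, 12.2, 10.9 and 14.2 CPM in sham aortas. Tcap, the titin cap protein telethonin of striated muscle, stood at 14.3, 15.7, 19.3 and 7.64 CPM in AngII aortas, against 44.8, 55.7, 48.9 and 48.8 CPM in sham aortas. Foxf1, a forkhead factor of mesenchyme, stood at 4.54, 6.76, 6.87 and 10.9 CPM in AngII aortas, against 18.7, 28.1, 30.1 and 24.0 CPM in sham aortas. None of these 3 overlapped between the groups, and their log2 fold changes were -1.78 ± 0.249, -1.80 ± 0.263 and -1.79 ± 0.258 (SE; edgeR adjusted p from 0.000168 to 0.000385). Ppp1r1b, the protein phosphatase inhibitor DARPP-32, averaged 1.51 ± 0.975 CPM in AngII aortas and 6.78 ± 0.972 CPM in sham aortas. Among abundant genes, the prohormone-processing carboxypeptidase Cpe averaged 1553 ± 284 CPM in AngII aortas and 2459 ± 158 CPM in sham aortas. The flavin monooxygenase Fmo2 averaged 709 ± 194 CPM in AngII aortas and 1114 ± 27.7 CPM in sham aortas, and Cavin1, a coat protein of caveolae, 964 ± 158 CPM in AngII aortas and 1356 ± 87.9 CPM in sham aortas. All 4 were called and did not overlap.

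**Figure D3:**
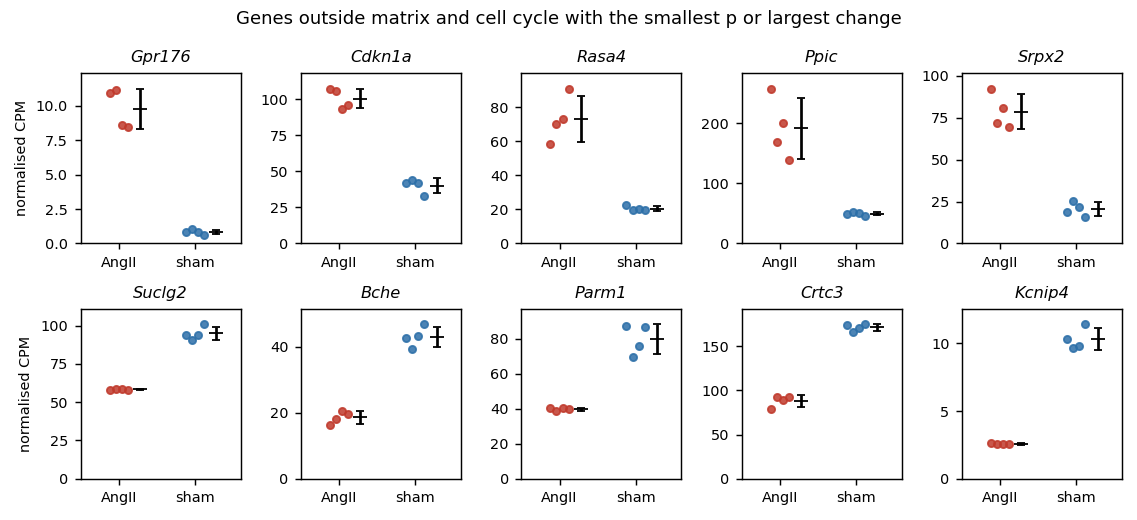
Normalised CPM in each library for 10 genes outside matrix and cell cycle, with AngII libraries on the left of each panel and sham libraries on the right. Points are libraries in replicate order, and black marks give the mean with the SD of 4 libraries. The upper row shows increases and the lower row decreases, and no panel has overlapping groups.

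Genes of the renin-angiotensin system make, break down and bind the infused peptide. Of 16 members 14 passed the filter on low counts, and 4 rose and 1 fell. Ace, the converting enzyme that makes AngII, stood at 1026, 940.5, 814 and 924 CPM in AngII aortas, against 572, 608, 585 and 468 CPM in sham aortas. Enpep, the aminopeptidase that degrades AngII to angiotensin III, stood at 58.1, 72.0, 60.4 and 86.3 CPM in AngII aortas, against 46.4, 37.3, 35.6 and 40.4 CPM in sham aortas. Both were higher in every AngII library, with log2 fold changes of 0.73 ± 0.102 and 0.79 ± 0.132 (SE; edgeR adjusted p = 0.000149 and 0.000606). Lnpep, the insulin-regulated aminopeptidase that binds angiotensin IV, had a log2 fold change of -0.39 ± 0.102. Agtr1a, the main type 1 receptor, stood at 5.46, 2.98, 3.90 and 3.24 CPM in AngII aortas, against 2.83, 2.28, 3.79 and 3.29 CPM in sham aortas. The groups overlapped and Agtr1a was not called (edgeR adjusted p = 0.265). Its close copy Agtr1b stood at 1.93, 2.21, 3.25 and 4.01 CPM in AngII aortas, against 1.78, 1.44, 1.73 and 1.82 CPM in sham aortas, with an adjusted p of 0.0664 in edgeR, 0.0439 in DESeq2 and 0.0368 in edgeR without AngII replicate 1. The sources used here do not say how reads shared by the 2 copies were counted. Without AngII replicate 4, the list had 7 increases.

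Of 21 tested constrictor receptors, 4 rose (19%) and 2 fell (9.52%), shares near those of all genes. Ednra, the endothelin A receptor, stood at 53.5, 27.9, 35.1 and 21.0 CPM in AngII aortas, against 12.4, 11.9, 13.1 and 11.9 CPM in sham aortas. F2r, the thrombin receptor, rose by 0.74 ± 0.139, and P2ry6, a receptor for UDP, by 0.50 ± 0.124 on the log2 scale. Adra2a, the alpha-2A adrenoceptor, averaged 3.49 ± 0.907 CPM in AngII aortas and 14.4 ± 2.43 CPM in sham aortas. Adra1d, the alpha-1D adrenoceptor of large arteries, stood at 7.80, 14.8, 17.2 and 23.7 CPM in AngII aortas, against 38.5, 45.9, 59.5 and 42.9 CPM in sham aortas. The endothelin and thrombin receptors thus lay higher, and both adrenoceptors lower, in every AngII library (edgeR adjusted p from 0.000349 to 0.00827 for these 5 genes). Without AngII replicate 3, 4 constrictor receptors fell. Of 21 dilator receptors, 5 fell and 3 rose, with 1 increase without AngII replicate 2 or sham replicate 2 or 3. Calcrl, the receptor of calcitonin gene-related peptide and adrenomedullin, averaged 34.5 ± 6.91 CPM in AngII aortas and 71.4 ± 9.60 CPM in sham aortas, and Ramp1, its partner for the first of these peptides, 83.4 ± 18.5 CPM in AngII aortas and 135 ± 15.2 CPM in sham aortas. Npr1, the natriuretic peptide receptor that makes cGMP, stood at 279, 353, 353 and 385 CPM in AngII aortas, against 468, 507, 509 and 474 CPM in sham aortas. The 3 genes were called, and Ramp1 lost its call without AngII replicates 1 and 4 together (adjusted p = 0.0582).

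In the nitric oxide and cGMP list, 3 of 20 tested members fell (15%) and 2 rose (10%), shares near those of all genes. The 3 that fell make and remove cGMP. Gucy1a1, the alpha subunit of soluble guanylate cyclase, the receptor of nitric oxide in smooth muscle, stood at 134, 172, 157 and 197 CPM in AngII aortas, against 418, 367, 353 and 408 CPM in sham aortas. Gucy1b1, its beta subunit, stood at 99.5, 152, 137 and 190.0 CPM in AngII aortas, against 304, 290.4, 301 and 289.7 CPM in sham aortas. Pde5a, the phosphodiesterase that breaks down cGMP, stood at 77.4, 110.1, 103 and 138 CPM in AngII aortas, against 169, 189, 184 and 186 CPM in sham aortas. Every AngII library was lower than every sham library in all 3 genes. The log2 fold changes were -1.23 ± 0.127, -1.04 ± 0.152 and -0.77 ± 0.136 (SE; edgeR adjusted p from 1.58e-05 to 0.000945). Both increases were also called. Ddah1, the enzyme that breaks down asymmetric dimethylarginine, an inhibitor of nitric oxide synthase, stood at 25.8, 6.32, 27.9 and 4.86 CPM in AngII aortas, against 0.757, 0.884, 0.794 and 1.22 CPM in sham aortas. AngII replicates 1 and 3 were the highest, and no sham library reached an AngII library. The log2 fold change was 4.15 ± 0.877 (SE; edgeR adjusted p = 0.00564), and it was 3.23 and not called in limma voom (adjusted p = 0.0861). The calcium-activated phosphodiesterase Pde1b rose by 0.79 ± 0.163. Nos3, endothelial nitric oxide synthase, stood at 38.4, 49.9, 48.6 and 56.2 CPM in AngII aortas, against 67.7, 58.9, 51.7 and 57.6 CPM in sham aortas and was not called (edgeR adjusted p = 0.387). The list had 6 decreases and 4 increases without AngII replicate 4.

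Among prostanoid enzymes 4 of 17 rose and 1 fell. Ptgs2, the inducible cyclooxygenase 2, stood at 31.2, 39.7, 20.3 and 70.8 CPM in AngII aortas, against 9.64, 8.55, 10.8 and 6.86 CPM in sham aortas, a log2 fold change of 2.17 ± 0.327 (SE; edgeR adjusted p = 0.000561). Alox5ap, which feeds arachidonic acid to leukotriene synthesis, rose by 0.87 ± 0.155. Without AngII replicate 3 the list had 2 increases, and both genes kept their calls. Among regulators of G protein signalling and receptor kinases, 6 of 22 rose and 3 fell. Rgs14 averaged 2.14 ± 0.324 CPM in AngII aortas and 1.00 ± 0.175 CPM in sham aortas. Rgs19 averaged 21.7 ± 4.14 CPM in AngII aortas and 14.1 ± 2.22 CPM in sham aortas. The receptor kinase Grk5 averaged 122 ± 38.8 CPM in AngII aortas and 73.0 ± 9.66 CPM in sham aortas. These genes were all called higher, and the values of Grk5 overlapped between groups. Rgs5, a mural cell regulator that shortens Gq signals, stood at 589, 676, 621 and 657 CPM in AngII aortas, against 1237, 894, 869.9 and 834 CPM in sham aortas. Rgs5 and Rgs7 fell, with log2 fold changes of -0.59 ± 0.140 and -0.64 ± 0.110 (SE). Without sham replicate 4 the list had 3 increases.

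Potassium channel genes moved in both directions, and of 35 tested, 12 fell and 8 rose. These are 34.3% lower and 22.9% higher, where 10.8% of all genes fell and 14.7% rose. The lower genes with the smallest p encode subunits or partners of voltage-gated channels. Kcnip4, a calcium-binding partner of Kv4 channels, stood at 2.68, 2.54, 2.57 and 2.53 CPM in AngII aortas, against 10.3, 9.69, 9.82 and 11.4 CPM in sham aortas. Kcnab1, a beta subunit of Kv1 channels, stood at 85.8, 119, 124 and 126 CPM in AngII aortas, against 263, 254, 250.6 and 259 CPM in sham aortas. Kcnq5, a Kv7 channel, of a family whose opening relaxes arteries, stood at 5.12, 6.58, 5.35 and 4.54 CPM in AngII aortas, against 9.53, 10.9, 11.01 and 11.7 CPM in sham aortas. In all 3 genes the groups were apart, and the log2 fold changes ran from -2.0 for Kcnip4 to -0.998 for Kcnq5. Kcnk6, a tandem-pore channel, was higher, at 22.5, 18.97, 19.7 and 18.5 CPM in AngII aortas, against 12.6, 13.3, 10.3 and 11.01 CPM in sham aortas.

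Calcium handling and mechanosensitive genes moved in both directions, with 10 of 34 lower and 7 higher. These are 29.4% lower and 20.6% higher, where 10.8% of all genes fell and 14.7% rose. Piezo1, the stretch-gated cation channel of endothelium and smooth muscle, stood at 87.8, 79.7, 76.8 and 87.6 CPM in AngII aortas, against 52.8, 40.6, 51.9 and 50.2 CPM in sham aortas. Its relative Piezo2, known from sensory neurons, stood at 69.7, 44.5, 38.7 and 26.3 CPM in AngII aortas, against 10.8, 10.9, 9.31 and 8.11 CPM in sham aortas. Both were higher in every AngII library, by 0.76 ± 0.0906 and 2.19 ± 0.288 on the log2 scale (SE; edgeR adjusted p = 4.64e-05 and 0.000217). Atp2b1, the plasma membrane calcium pump, rose by 0.57 ± 0.0819, the store sensor Stim2 by 0.40 ± 0.0785 and the store-operated channel Orai2 by 0.61 ± 0.129. Pln, phospholamban, the brake on the calcium pump of the sarcoplasmic reticulum, stood at 2.31, 2.65, 1.92 and 1.90 CPM in AngII aortas, against 5.18, 5.42, 5.34 and 5.61 CPM in sham aortas. Pln was thus lower throughout (log2 fold change -1.29 ± 0.230, SE; edgeR adjusted p = 0.000926). Without sham replicate 3 the list had 6 decreases.

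Of 26 genes of the contractile apparatus, 8 fell and 1 rose. Ppp1r12a, the myosin phosphatase subunit MYPT1 through which cGMP relaxes smooth muscle, stood at 318, 443, 406 and 509.5 CPM in AngII aortas, against 821, 883, 859 and 889 CPM in sham aortas. It had a log2 fold change of -1.04 ± 0.138 (SE; edgeR adjusted p = 9.84e-05). Rock1, a kinase that inhibits this phosphatase, stood at 265, 358, 336 and 379.7 CPM in AngII aortas, against 480.4, 506, 448 and 432 CPM in sham aortas. Enzyme and inhibitor were thus both lower, and neither overlapped between groups. The list's count depended on single libraries: it was 3 without AngII replicate 1 or sham replicate 3, 4 without AngII replicate 2 or sham replicate 1 or 2, and 13 without AngII replicate 4. Ppp1r12a, Rock1 and Lmod1 kept their calls in each of these. The list's genes took 4.57 ± 0.975% of the counts, without TMM scaling, in AngII libraries and 6.52 ± 0.443% in sham libraries (SD). An exact two-sided permutation test gave p = 0.0286, the lowest that 70 regroupings allow, or 0.0643 adjusted over 9 gene groups. Matrix list genes took 16.8 ± 1.24% in AngII libraries and 8.2 ± 0.755% in sham libraries. A larger share for some genes leaves less for the others, and the part of this was not tested.

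**Figure D4:**
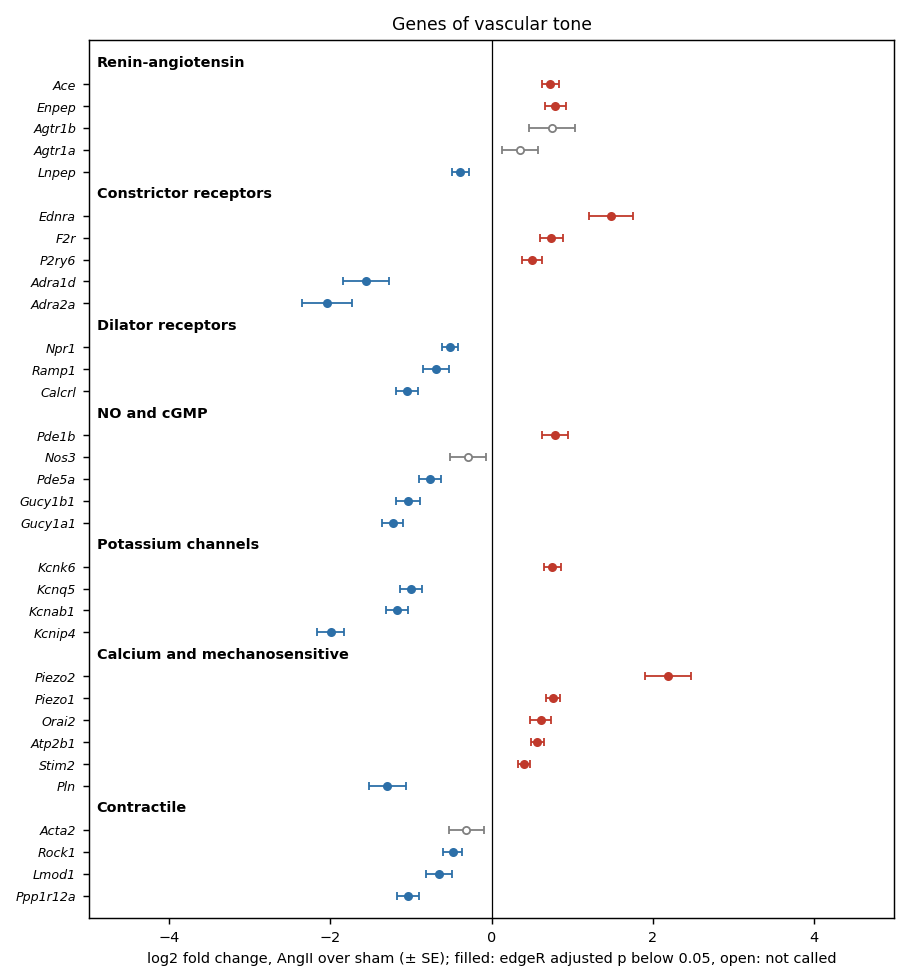
Log2 fold changes, AngII over sham, of named genes of vascular tone, with bars of 1 SE. Filled points passed edgeR's adjusted threshold of 0.05 and open points did not. Cyclase, dilator receptor and voltage-gated potassium channel genes lie left of 0, while Ednra, Piezo1 and Piezo2 lie right of it.

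Calcineurin is a phosphatase switched on by calcium, and NFAT is the factor it sends to the nucleus. In the calcineurin, NFAT and hypertrophy list, 7 of 21 tested members rose and 3 fell, and the decreases numbered 1 without AngII replicate 2 or sham replicate 3 and 5 without AngII replicate 4. Rcan1, a calcineurin inhibitor that is itself an NFAT target, stood at 114, 120.4, 94.0 and 154 CPM in AngII aortas, against 34.3, 42.3, 35.3 and 27.7 CPM in sham aortas. Its relative Rcan2 stood at 290.4, 369, 364 and 382 CPM in AngII aortas, against 634, 612, 600.2 and 615 CPM in sham aortas. The pair moved in opposite directions, with log2 fold changes of 1.79 ± 0.181 and -0.81 ± 0.0963 (SE; edgeR adjusted p = 2.12e-05 and 4.77e-05). Prkca rose by 0.64 ± 0.113 and Prkcb by 0.97 ± 0.139, both classical protein kinase C genes, and Nfatc2 by 0.93 ± 0.196.

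Of 30 immediate early and MAP kinase feedback genes, 12 rose and 1 fell (40% higher, median log2 fold change 0.68). Myc, a growth transcription factor, stood at 6.11, 7.28, 5.21 and 9.05 CPM in AngII aortas, against 2.07, 3.24, 2.31 and 2.43 CPM in sham aortas. Egr2, a zinc finger factor induced by growth signals, stood at 8.85, 6.10, 6.07 and 12.0 CPM in AngII aortas, against 3.41, 2.76, 2.24 and 2.22 CPM in sham aortas. Both were higher in every AngII library, by 1.46 ± 0.198 and 1.63 ± 0.251 on the log2 scale. Spry4, a Sprouty protein that dampens receptor tyrosine kinase signals, rose by 0.87 ± 0.122. Klf2 and Klf4, flow-responsive Krüppel-like factors, rose by 1.15 ± 0.208 and 0.69 ± 0.117. Nr4a3, an orphan nuclear receptor, stood at 31.4, 18.5, 15.3 and 66.1 CPM in AngII aortas, against 4.89, 6.78, 7.44 and 5.79 CPM in sham aortas. Its log2 fold change was 2.40 ± 0.429, and 1.80 without AngII replicate 4, the highest library. Targets and partners of SRF, MRTF and YAP, which read actin tension, had 8 of 26 higher and 2 lower, and the decreases numbered 0 when any library but AngII replicate 4 was left out. Tpm4, a low-molecular-weight tropomyosin, stood at 495, 512, 582 and 613 CPM in AngII aortas, against 250.2, 276, 248 and 232 CPM in sham aortas. Ccn2, connective tissue growth factor, stood at 3330, 5002, 3192 and 7994 CPM in AngII aortas, against 1562, 2231, 1969 and 1349 CPM in sham aortas. Ankrd1 rose by 1.49 ± 0.300, Fhl2 by 1.04 ± 0.200 and the kinase gene Nuak2 by 1.03 ± 0.151, and all 5 were called. Without AngII replicates 1 and 4 this list had 5 increases.

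Of 35 growth factor ligands 16 rose (45.7%) and 5 fell, or 3 without AngII replicate 2 or sham replicate 3 or 4. Igf1, insulin-like growth factor 1, stood at 517, 214, 277 and 216 CPM in AngII aortas, against 67.1, 62.9, 60.1 and 51.1 CPM in sham aortas. Pgf, placental growth factor, a ligand of the receptor Flt1, stood at 10.04, 20.6, 12.8 and 31.1 CPM in AngII aortas, against 3.85, 3.31, 3.50 and 1.501 CPM in sham aortas. No sham library reached an AngII library in either gene, and the log2 fold changes were 2.34 ± 0.301 and 2.61 ± 0.374 (SE; edgeR adjusted p = 0.000179 and 0.000351). Pdgfc, a platelet-derived growth factor, averaged 81.9 ± 9.28 CPM in AngII aortas and 41.2 ± 3.22 CPM in sham aortas, and Fgf16 7.82 ± 1.11 CPM in AngII aortas and 3.17 ± 0.924 CPM in sham aortas. In the other direction, Ntf3, neurotrophin 3, stood at 21.5, 26.4, 35.6 and 29.6 CPM in AngII aortas, against 52.96, 60.9, 56.9 and 51.5 CPM in sham aortas. Its receptor gene Ntrk3 stood at 129, 145, 156 and 141 CPM in AngII aortas, against 318, 320.1, 324 and 336 CPM in sham aortas. Ligand and receptor of this pair were both lower in every AngII library, with log2 fold changes of -0.98 ± 0.123 and -1.18 ± 0.111 (edgeR adjusted p = 6.99e-05 and 7.62e-06). Btc, the EGF receptor ligand betacellulin, averaged 7.90 ± 2.87 CPM in AngII aortas and 23.3 ± 4.08 CPM in sham aortas, and Egfr, the receptor, 83.7 ± 19.1 CPM in AngII aortas and 48.1 ± 3.77 CPM in sham aortas. Among 34 growth factor receptors 11 rose and 3 fell. The clearance receptor Igf2r rose by 0.81 ± 0.0983 and the semaphorin and VEGF coreceptor Nrp1 by 0.69 ± 0.116, and the insulin receptor Insr had a log2 fold change of -0.52 ± 0.104.

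IGF binding proteins carry IGF in blood and tissue and limit its access to the receptor. Of 10 tested genes of the IGF binding protein list, 7 rose and 0 fell (median log2 fold change 0.73), with 4 in limma voom. Not all of the 7 encode binding proteins. The protease gene Pappa is counted among them, and so is a noncoding RNA that lost its call in limma voom. Igfbp2, one of the carriers, stood at 123, 127, 148 and 283 CPM in AngII aortas, against 20.5, 41.8, 22.6 and 8.61 CPM in sham aortas. Pappa, the protease that frees IGF from its binding proteins, stood at 8.79, 5.81, 11.8 and 7.85 CPM in AngII aortas, against 1.17, 1.105, 1.44 and 1.25 CPM in sham aortas. The lowest AngII value of each exceeded the highest sham value. Igfbp6 rose by 0.71 ± 0.159 and Igfbp7 by 0.75 ± 0.175, and the values of Igfbp7 overlapped between groups.

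In the TGF-beta, activin and BMP list 11 of 41 rose and 3 fell. Fst, follistatin, which binds and blocks activin, stood at 95.4, 42.9, 77.1 and 56.1 CPM in AngII aortas, against 11.2, 8.91, 12.8 and 11.1 CPM in sham aortas. The latent ligands Tgfb1 and Tgfb3 were both higher. Tgfb1 averaged 58.6 ± 5.14 CPM in AngII aortas and 41.1 ± 5.28 CPM in sham aortas. Tgfb3 averaged 359.5 ± 48.3 CPM in AngII aortas and 204 ± 18.4 CPM in sham aortas. Bmp1, the protease that trims procollagens, averaged 419 ± 76.2 CPM in AngII aortas and 209 ± 18.9 CPM in sham aortas, and Gdf10 444 ± 54.4 CPM in AngII aortas and 248 ± 20.2 CPM in sham aortas. Each of the 5 was called and without overlap. Wnt genes had 12 of 40 higher and 4 lower. Frzb, a secreted frizzled-related antagonist, stood at 89.5, 72.0, 79.3 and 75.5 CPM in AngII aortas, against 41.0, 32.7, 43.9 and 27.8 CPM in sham aortas. Sfrp4, another of that family, rose by 1.28 ± 0.206, the dishevelled inhibitor Nkd2 by 1.46 ± 0.232 and the Wnt5a receptor Ror2 by 1.70 ± 0.315 on the log2 scale. Axon guidance genes had 11 of 41 higher and 5 lower, or 8 lower without AngII replicate 4. The netrin receptors split. Unc5b stood at 46.8, 58.9, 56.4 and 77.5 CPM in AngII aortas, against 25.6, 30.8, 39.0 and 24.9 CPM in sham aortas, and Unc5c at 33.1, 31.1, 36.0 and 29.1 CPM in AngII aortas, against 81.8, 76.5, 76.3 and 81.2 CPM in sham aortas. Sema5a, a semaphorin, averaged 69.4 ± 3.94 CPM in AngII aortas and 131 ± 8.41 CPM in sham aortas and Plxnb1, a plexin, 45.2 ± 8.27 CPM in AngII aortas and 83.4 ± 9.47 CPM in sham aortas, both lower, and Slit2, a ligand of Robo receptors, averaged 32.6 ± 12.9 CPM in AngII aortas and 12.5 ± 1.30 CPM in sham aortas and was higher. Of 19 integrin subunits 6 rose and 1 fell. They included the leukocyte subunits Itgb2 (1.04 ± 0.131), Itgb7 (1.88 ± 0.247) and Itga4 (0.87 ± 0.172) and the collagen receptor subunit Itga11 (1.55 ± 0.207, log2 fold changes with SE).

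Genes of macrophages and dendritic cells are described first. Ccr2, the receptor that draws inflammatory monocytes from blood, stood at 49.8, 29.5, 24.2 and 13.2 CPM in AngII aortas, against 5.53, 1.80, 2.35 and 4.43 CPM in sham aortas. It was highest in AngII replicate 1 and lowest in AngII replicate 4, yet apart from every sham library. Cd68, a lysosomal protein of macrophages, stood at 24.4, 21.1, 27.3 and 18.8 CPM in AngII aortas, against 13.1, 12.2, 10.5 and 9.97 CPM in sham aortas. Adgre1, the macrophage antigen F4/80, averaged 47.8 ± 9.58 CPM in AngII aortas and 27.7 ± 2.90 CPM in sham aortas. Itgax, the integrin CD11c of dendritic cells and some macrophages, stood at 8.65, 8.64, 4.45 and 5.25 CPM in AngII aortas, against 1.66, 1.14, 1.08 and 0.679 CPM in sham aortas. Clec9a, a receptor of conventional dendritic cells type 1, averaged 1.51 ± 0.238 CPM in AngII aortas and 0.212 ± 0.145 CPM in sham aortas. Flt3, the receptor for dendritic cell growth, averaged 1.46 ± 0.551 CPM in AngII aortas and 0.0779 ± 0.0889 CPM in sham aortas, and its log2 fold change of 4.06 ± 0.534 was 5.17 without sham replicate 1. The 6 genes were called (edgeR adjusted p from 1.82e-05 to 0.000382).

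Of 11 genes of MHC class II presentation, which display peptides to helper T cells, 9 rose and 0 fell (median log2 fold change 1.39). Ctss, the protease cathepsin S that trims the invariant chain, stood at 85.6, 57.8, 55.7 and 40.0 CPM in AngII aortas, against 29.6, 21.6, 25.6 and 23.8 CPM in sham aortas. H2-DMb1, a subunit of the peptide exchange factor, stood at 26.9, 16.9, 17.03 and 11.3 CPM in AngII aortas, against 8.24, 9.91, 9.31 and 9.76 CPM in sham aortas. H2-Ob, a subunit of its inhibitor, averaged 1.72 ± 0.591 CPM in AngII aortas and 0.585 ± 0.208 CPM in sham aortas. In all 3, the AngII libraries lay above the sham libraries. H2-DMb1 has a close copy, H2-DMb2, so reads may have been split between them. Ciita, the master coactivator of these genes, stood at 19.7, 8.79, 4.81 and 4.22 CPM in AngII aortas, against 2.39, 2.65, 2.35 and 3.93 CPM in sham aortas. The mean log2 CPM of the list was 4.95, 4.13, 3.80 and 2.90 in AngII libraries and 2.75, 2.59, 2.59 and 2.97 in sham libraries, so AngII replicate 4 lay within the sham range. Ciita had a log2 fold change of 1.73 ± 0.414, which was 1.07 without AngII replicate 1, and the list then had 5 increases.

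The promoters of these genes are known to carry an inverted CCAAT element, the Y box, and the CCAAT letters are shown here for the 2 genes with the smallest p that have a match. A window from 250 bases before to 50 bases after the RefSeq start site (build GRCm38.p6) was read on both strands for CCAAT, which 37.4% of all windows held. Windows were at hand for 6 of the 9 genes that rose, and 5 held it. The match is in capitals below, and no match was taken as a bound site.
H2-DMb1 (chr17:34153100-34153179, + strand): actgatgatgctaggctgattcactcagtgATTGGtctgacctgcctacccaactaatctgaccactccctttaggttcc
H2-Ob (chr17:34238818-34238897, + strand): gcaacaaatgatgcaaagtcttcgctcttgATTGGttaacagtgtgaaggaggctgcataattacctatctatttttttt

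Of 24 chemokines tested, 11 rose and 1 fell, with 6 increases without sham replicate 2 or sham replicate 3. Cx3cl1, fractalkine, stood at 39.0, 39.7, 36.5 and 40.4 CPM in AngII aortas, against 23.6, 21.6, 24.2 and 20.6 CPM in sham aortas. Cxcl16, which also acts as a scavenger receptor, stood at 46.2, 31.9, 36.5 and 25.4 CPM in AngII aortas, against 15.4, 17.1, 15.6 and 13.9 CPM in sham aortas. Both were higher throughout, by 0.79 ± 0.0820 and 1.18 ± 0.141 on the log2 scale (SE; edgeR adjusted p = 1.62e-05 and 5.15e-05). Ccl9 averaged 30.1 ± 7.54 CPM in AngII aortas and 15.3 ± 3.93 CPM in sham aortas, with overlapping groups. Ccrl2, a chemerin-binding receptor, moved the other way, at 7.56, 8.60, 8.35 and 7.22 CPM in AngII aortas, against 15.2, 18.2, 15.7 and 13.6 CPM in sham aortas. Among interleukins, TNF family members and their receptors, 17 of 35 rose (48.6%) and 2 fell, or 1 without AngII replicate 1, 2 or 4 or sham replicate 1 or 2. Tnfrsf11b, osteoprotegerin, stood at 139.8, 132, 102 and 177 CPM in AngII aortas, against 38.9, 35.0, 29.2 and 28.5 CPM in sham aortas. Tnfrsf1b, TNF receptor 2, rose by 0.92 ± 0.113 and the oncostatin receptor Osmr by 0.69 ± 0.108. Adhesion genes were split, with 4 of 17 higher and 4 lower, or 2 lower without AngII replicate 1, 2 or 3 or sham replicate 1 or 2. Vcam1, the leukocyte ligand of activated endothelium, averaged 150.3 ± 33.9 CPM in AngII aortas and 83.7 ± 5.24 CPM in sham aortas, Selplg, the selectin ligand of leukocytes, 9.61 ± 3.39 CPM in AngII aortas and 3.81 ± 0.409 CPM in sham aortas, and the hyaluronan receptor Cd44 122 ± 20.9 CPM in AngII aortas and 62.8 ± 6.58 CPM in sham aortas. The tight junction genes Jam3 and F11r were both lower. Jam3 averaged 69.3 ± 3.77 CPM in AngII aortas and 94.6 ± 5.56 CPM in sham aortas. F11r averaged 29.6 ± 1.78 CPM in AngII aortas and 39.0 ± 2.74 CPM in sham aortas.

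Complement and coagulation genes had 21 of 34 higher (61.8%) and 1 lower. Plau, the urokinase that activates plasminogen, stood at 33.8, 40.4, 36.5 and 67.3 CPM in AngII aortas, against 14.0, 12.2, 15.4 and 11.8 CPM in sham aortas. It was higher in every AngII library, by 1.73 ± 0.218 on the log2 scale (SE; edgeR adjusted p = 0.000118). The anaphylatoxin receptor C3ar1 averaged 20.7 ± 2.02 CPM in AngII aortas and 10.97 ± 1.90 CPM in sham aortas. The single gene that fell was C7, a terminal complement component, at 134, 152, 105 and 103 CPM in AngII aortas, against 399.5, 248, 295 and 313 CPM in sham aortas. Among lysosomal and phagocytic genes 24 of 30 rose (80%) and 0 fell, with a median log2 fold change of 0.58. Trem2, a lipid receptor of foamy macrophages, stood at 8.01, 5.96, 7.92 and 4.19 CPM in AngII aortas, against 2.56, 1.77, 2.13 and 2.29 CPM in sham aortas. The acid lipase gene Lipa averaged 88.2 ± 1.80 CPM in AngII aortas and 59.3 ± 4.47 CPM in sham aortas and the cathepsin gene Ctsl 562 ± 27.6 CPM in AngII aortas and 346 ± 25.9 CPM in sham aortas. All 3 were called without overlap.

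NADPH oxidase and antioxidant genes had 10 of 29 higher and 1 lower. Ncf1, the p47 subunit of the phagocyte oxidase, stood at 18.3, 19.4, 13.9 and 12.3 CPM in AngII aortas, against 8.77, 6.92, 6.93 and 6.72 CPM in sham aortas. Noxo1, the organiser of the oxidase Nox1, stood at 6.61, 8.23, 9.04 and 7.92 CPM in AngII aortas, against 17.6, 20.0, 20.9 and 20.6 CPM in sham aortas. These 2 organisers of related oxidases thus moved in opposite directions (log2 fold changes 1.12 ± 0.144 and -1.31 ± 0.114, SE; edgeR adjusted p = 7.81e-05 and 5.36e-06). Nox4, an oxidase of smooth muscle that makes hydrogen peroxide, stood at 421, 573, 425 and 579 CPM in AngII aortas, against 604, 606, 552 and 585 CPM in sham aortas. Its groups overlapped, and among the fits tried it was called only with library size scaling (adjusted p = 0.0373, against 0.208 in edgeR with TMM). Hmox1, haem oxygenase 1, rose by 0.91 ± 0.120, and the endoplasmic reticulum peroxidases Gpx7 and Gpx8 by 1.04 ± 0.146 and 0.91 ± 0.0926.

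Serine, proline and asparagine can be built in the cell from intermediates of glycolysis and the tricarboxylic acid cycle. Of 24 genes of serine, glycine, proline and one-carbon metabolism, 10 rose (41.7%) and 2 fell, or 4 fell without AngII replicate 3. Psat1, the serine synthesis aminotransferase, stood at 12.5, 12.4, 15.5 and 13.4 CPM in AngII aortas, against 6.09, 4.35, 5.42 and 4.54 CPM in sham aortas. Pycr1, which completes proline synthesis in mitochondria, stood at 30.8, 25.4, 39.4 and 24.4 CPM in AngII aortas, against 15.5, 17.1, 14.5 and 13.3 CPM in sham aortas. Asns, asparagine synthetase, stood at 12.6, 10.4, 12.2 and 7.11 CPM in AngII aortas, against 4.22, 2.73, 3.86 and 6.93 CPM in sham aortas. All AngII libraries lay above all sham libraries, with log2 fold changes of 1.40 ± 0.127, 0.99 ± 0.145 and 1.25 ± 0.255 (SE; edgeR adjusted p from 6.39e-06 to 0.00281). Aldh18a1, at the first step of proline synthesis, rose by 0.81 ± 0.121 and the aspartate aminotransferase Got1 by 0.57 ± 0.102, and the glutamine carrier Slc38a1 had a log2 fold change of -0.69 ± 0.135.

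Factors of the ATF4 and unfolded protein responses had 8 of 21 higher and 2 lower, or 1 lower without AngII replicate 2 or 4 or sham replicate 2 or 4. Nupr1, a stress-induced chromatin protein, stood at 603, 669.5, 695 and 568 CPM in AngII aortas, against 257, 370.2, 285 and 209.5 CPM in sham aortas. Chac1, a glutathione-degrading ATF4 target, stood at 1.39, 2.43, 2.10 and 3.66 CPM in AngII aortas, against 0.670, 1.44, 0.758 and 1.25 CPM in sham aortas. Chac1 was called although its groups overlapped (edgeR adjusted p = 0.0103). Sesn2, a stress brake on mTORC1, rose by 0.62 ± 0.128. Vldlr, the very low density lipoprotein receptor, listed here as an ATF4 target, stood at 81.5, 87.7, 84.9 and 89.5 CPM in AngII aortas, against 139, 126, 130.4 and 133 CPM in sham aortas. The groups of Nupr1 and of Vldlr did not overlap, and they moved in opposite directions. Chaperones and carriers of the secretory pathway had 16 of 31 higher (51.6%) and 0 lower, and the median log2 fold change over all 31 was 0.36. Lman1, a cargo receptor for export from the endoplasmic reticulum, stood at 135, 129.9, 127 and 139 CPM in AngII aortas, against 90.6, 85.7, 86.4 and 80.8 CPM in sham aortas. Mia3, which exports collagen, rose by 0.43 ± 0.0638 and the retrieval receptor Kdelr3 by 0.92 ± 0.139.

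Several of these genes are known to carry the composite C/EBP-ATF element through which ATF4 acts on amino acid genes, so their start site regions are shown. The letters TGATGNAA on either strand were found in 3.97% of all RefSeq windows. Among the genes that rose, 4 of 10 windows of the serine and one-carbon list held them, and 2 of 8 windows of the ATF4 list. The 5 regions below come from RefSeq (GRCm38.p6) on the strand of the gene, with the match in capitals. Each region is 80 bases long, and the match in Asns begins 23 bases before the start site, that in Chac1 193 bases before it.
Asns (chr6:7693183-7693262, - strand): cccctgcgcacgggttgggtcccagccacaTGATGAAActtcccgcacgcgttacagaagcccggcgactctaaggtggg
Pycr1 (chr11:120643802-120643881, - strand): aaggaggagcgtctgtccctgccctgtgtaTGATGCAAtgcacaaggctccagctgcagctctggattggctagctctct
Got1 (chr19:43524658-43524737, - strand): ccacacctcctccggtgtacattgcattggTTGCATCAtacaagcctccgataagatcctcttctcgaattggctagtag
Nupr1 (chr7:126625531-126625610, - strand): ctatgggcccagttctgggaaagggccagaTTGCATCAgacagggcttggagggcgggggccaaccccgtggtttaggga
Chac1 (chr2:119351019-119351098, + strand): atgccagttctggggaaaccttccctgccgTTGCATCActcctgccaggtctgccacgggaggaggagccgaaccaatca
Asns and Pycr1 read TGATGAAA and TGATGCAA, and the other 3 regions hold the reverse complement TTGCATCA. A match is a description of letters, and binding was not measured.

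**Figure D5:**
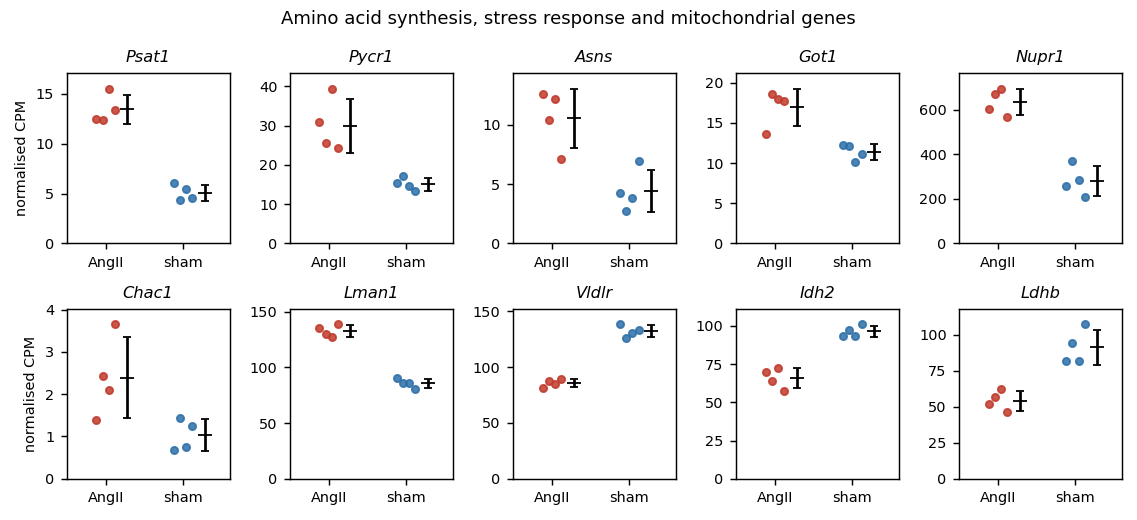
Normalised CPM in each library for genes of amino acid synthesis, stress response, secretion and mitochondrial metabolism, with AngII libraries on the left of each panel and sham libraries on the right. Points are libraries in replicate order, and black marks give the mean with the SD of 4 libraries. Psat1, Pycr1, Nupr1 and Lman1 are higher in all 4 AngII libraries, Vldlr, Idh2 and Ldhb are lower in all 4, and Chac1 overlaps.

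In the lists of the tricarboxylic acid cycle and glycolysis all calls were decreases. In the tricarboxylic acid cycle list 3 of 20 fell and 0 rose (median log2 fold change -0.21), among them Suclg2. Idh2, the mitochondrial isocitrate dehydrogenase, stood at 69.8, 63.9, 72.6 and 57.4 CPM in AngII aortas, against 93.3, 97.7, 93.3 and 101 CPM in sham aortas. Of 22 genes of glycolysis and lactate, 3 fell (5 without AngII replicate 3) and 0 rose. Ldhb, the lactate dehydrogenase subunit of oxidative tissues, stood at 51.8, 56.7, 62.4 and 46.2 CPM in AngII aortas, against 81.7, 94.2, 81.9 and 108 CPM in sham aortas. Pfkp, a phosphofructokinase, averaged 161 ± 28.2 CPM in AngII aortas and 219 ± 6.26 CPM in sham aortas. These shares, 15% and 13.6%, are near the 10.8% of all genes. Sham replicate 4 stood above the other libraries in both lists: the mean log2 CPM of the tricarboxylic acid cycle list was 6.51 to 6.81 in AngII libraries, 7.36 in sham replicate 4 and 6.68 to 6.79 in the other sham libraries. Without it the list's median log2 fold change was -0.022, with 3 members lower, and that of glycolysis was 0.03, with 3 lower and 1 higher. The same library had the highest sum of brown adipocyte markers, 826.9 CPM, where the other sham libraries had 289.9 to 411.2 CPM and AngII libraries 374.1 to 535.9 CPM. White adipocyte markers summed to 1022 to 3113 CPM in AngII libraries and 989 to 2532 CPM in sham libraries, with sham replicate 4 the highest of the sham libraries. The part of these adipocyte markers in the result was not tested.

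Transcription factors of vascular and skeletal identity had 14 of 39 tested members higher and 6 lower. Runx1, a factor of blood formation, averaged 21.9 ± 9.03 CPM in AngII aortas and 6.30 ± 0.616 CPM in sham aortas. Runx2, the bone factor, averaged 7.26 ± 2.27 CPM in AngII aortas and 2.44 ± 0.682 CPM in sham aortas. Sox9, the cartilage factor, stood at 16.3, 6.40, 8.46 and 9.82 CPM in AngII aortas, against 1.34, 3.72, 3.18 and 2.79 CPM in sham aortas. Scx, scleraxis, the tendon factor, averaged 31.7 ± 6.59 CPM in AngII aortas and 10.8 ± 4.52 CPM in sham aortas. All 4 were called, and none overlapped. Of 25 tested Hox genes, which mark position along the body, 8 fell (32%) and 1 rose. Hoxb3 stood at 29.7, 27.1, 31.5 and 28.02 CPM in AngII aortas, against 38.9, 44.0, 38.2 and 36.2 CPM in sham aortas. Hoxb4 and Hoxb5 had log2 fold changes of -0.44 ± 0.0901 and -0.40 ± 0.0989 (SE). The 3 differences were small, and 5 Hox genes were lower without AngII replicate 2, sham replicate 1 or sham replicate 2. Clock genes had 4 of 19 lower and 2 higher, or 1 higher without AngII replicate 1 or sham replicate 1, 2 or 3. Nr1d1, the repressor REV-ERB alpha, stood at 106, 135, 163 and 117 CPM in AngII aortas, against 184, 224, 204 and 196 CPM in sham aortas. Hlf, a clock output factor, averaged 10.7 ± 2.37 CPM in AngII aortas and 20.0 ± 1.38 CPM in sham aortas and the repressor Cry2 46.2 ± 5.54 CPM in AngII aortas and 64.1 ± 4.72 CPM in sham aortas. The labels do not give the hour of tissue collection.

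Of 19 tested inhibitors of the cell cycle and p53 targets, 9 rose (47.4%) and 1 fell. Besides Cdkn1a, they included Zmat3, an RNA-binding p53 target, at 50.3, 45.0, 38.8 and 50.6 CPM in AngII aortas, against 28.7, 30.3, 31.3 and 27.9 CPM in sham aortas. Eda2r, a TNF family receptor that p53 induces, stood at 12.7, 12.6, 8.43 and 7.32 CPM in AngII aortas, against 4.83, 2.95, 3.57 and 3.86 CPM in sham aortas. In both, every AngII library exceeded every sham library, with log2 fold changes of 0.64 ± 0.0863 and 1.43 ± 0.190 (SE; edgeR adjusted p = 0.00011 and 0.000101).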

How the data were processed

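Each library came with a deposited table of raw read counts, whole numbers for each Ensembl gene. Per the labels' protocols, polyadenylated RNA was made into directional paired-end libraries. Per the submitters' processing notes, cutadapt, HISAT2 and HTSeq were used with GRCm39. Their versions, the annotation and the strand setting are not given in the sources used here, so reads of overlapping antisense genes may not be told apart. The 5 summary lines of each table were dropped, the largest being reads in no gene (8.69 to 10.95% of all reads tallied) and reads with several alignments (5.36 to 7.81%). RefSeq gene tables gave symbols to 52083 of 55416 identifiers.

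The 13 aorta libraries (WT AngII, WT sham and KO AngII) were fitted as 3 groups in edgeR 4.0.16 under R 4.3.3, with TMM scaling, filterByExpr, a robust quasi-likelihood F test and Benjamini-Hochberg adjustment over 16863 genes. The common dispersion was 0.0286. Only the WT contrast was read. The test was checked on simulated data with 200 genes changed. It recovered 55.2% of 1.5-fold, 86.6% of 2-fold and 98.5% of 4-fold changes, with 5 false calls. Far more genes were called in the real data, and the scaling was not checked under so wide a shift. Replicates of a group differed by more than counting noise, with a chi-square per degree of freedom of 10.6 to 157, so none was a repeated library.

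Gene lists were described by the number of members called and by their median, without a set test. Means of marker lists and shares of counts were compared by exact two-sided permutation over 70 regroupings of the 8 libraries. Alternatives were DESeq2 1.42.0, limma 3.58.1 voom with quality weights, 2 other scalings, 2 other filters, the 8 WT libraries alone, a replicate block, each WT library left out, and AngII replicates 1 and 4 left out together, the last added after the data were seen. Named genes were, outside the matrix and cell cycle lists and without overlap between groups, with mean log2 CPM not under 1, the 15 largest changes, the 10 smallest p and the 10 largest CPM differences per direction, and, by list, the called members of smallest p (at most 6), and the text gives a selection of these, with some not reported here. Acta2, Agtr1a, Agtr1b, Nos3 and Nox4 fall outside this rule and were picked with their values in view. The comparison and the gene lists were chosen with earlier results of these data known. Promoter windows came from RefSeq on GRCm38.p6, another build than that of the counts, so no gene coordinates are given beyond those windows. The mesenteric artery libraries were not used here.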

Additional observations from a re-analysis of the deposited data

Results flagged for a closer look

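Within groups of 4 libraries, a value was picked out when its gap to the nearest other library took up more of the group's log2 range than Dixon's 95% critical value allows. Chance picks out about 1 group in 20, and 14 of 390 groups examined held such a value. In AngII libraries these were Spns2 in replicate 4 (14.47 CPM, the highest), Fhl2 in replicate 4 (44.25 CPM, the highest), Lepr in replicate 3 (2.35 CPM, the lowest), Atp2b1 in replicate 3 (75.82 CPM, the lowest), Kcnab1 in replicate 1 (85.85 CPM, the lowest), C3ar1 in replicate 1 (23.74 CPM, the highest) and Got1 in replicate 1 (13.57 CPM, the lowest). The summed lymphatic markers of AngII replicate 3 stood apart as well (99.72 CPM, the lowest). In sham libraries they were Cdkn1a (32.63 CPM), Pgf (1.501 CPM) and Bmp1 (181.4 CPM) in replicate 4, each the lowest, Itga4 in replicate 2 (5.01 CPM, the lowest), Ncf1 in replicate 1 (8.768 CPM, the highest) and the summed macrophage markers of replicate 1 (909.6 CPM, the highest). Without that library each of these 12 genes kept its call.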

How the results depend on the processing

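Across 17 other fits, 180 of the 182 named and called genes kept their call in each fit that tested them, none of the 187 named genes reversed, and 26 of 46 list counts stayed within 1.5 times. The cause of the shifts below was not tested. Left out one at a time, the libraries gave 1943 to 2634 genes higher and 1288 to 2062 lower. Over the same fits, the numbers higher ran from 4 to 10 for fibroblast markers, 3 to 6 for lymphatic markers, 3 to 7 for renin-angiotensin genes, 2 to 5 for prostanoid enzymes, 3 to 6 for G protein regulators, 6 to 12 for chemokines and 5 to 11 for MHC class II. The numbers lower ran from 1 to 6 for smooth muscle markers, 3 to 13 for contractile genes, 3 to 6 for the cGMP list, 6 to 14 for calcium genes, 2 to 5 for glycolysis, 5 to 9 for Hox genes, 2 to 5 for erythroid markers and 1 to 3 for endothelial markers. Library size scaling gave 3729 genes lower, 8 smooth muscle markers, 16 contractile, 6 cGMP, 5 glycolysis, 5 tricarboxylic acid cycle, 5 endothelial and 7 clock genes lower, and 4 fibroblast and 2 renin-angiotensin genes higher. DESeq2 gave 7 renin-angiotensin genes higher and 5 cGMP genes and 5 endothelial markers lower. Limma voom gave 9 smooth muscle markers, 17 contractile and 5 cGMP genes lower and 4 IGF binding protein genes higher. Without a filter on low counts, 4 fibroblast and 3 lymphatic markers were higher. With the 8 WT libraries alone, 1 smooth muscle marker, 2 erythroid markers and 4 contractile genes were lower, and 4 fibroblast markers, 3 G protein regulators, 7 chemokines and 5 MHC class II genes were higher. Without AngII replicates 1 and 4, an alternative chosen after seeing the data, 11 fibroblast markers and 5 SRF and YAP genes were higher, and 3 dilator receptors, 5 cGMP genes, 1 erythroid marker and 1 endothelial marker were lower.

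The groups share replicate numbers in the labels. The correlation of deviations between same-numbered AngII and sham libraries was 0.138, -0.253, -0.116 and -0.398. The labels do not say whether the numbers mark pairs, and so few libraries cannot decide it. The main fit did not pair them. A replicate block gave 2179 genes higher and 1591 lower, against 2475 and 1826, and 2 lymphatic markers higher. Depth limits the genes near or under 1 CPM, such as Flt3 and Clec9a, whose sham values rest on few reads.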
